A study of Mus musculus with 194 samples.

Results

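The nucleus accumbens (NAc) was profiled over the first hours after a first injection of cocaine in 14 of the 194 libraries of the series, which were the NAc libraries that the labels place in the acute experiment. Of these, 4 came from naive mice (0 hr), 4 from mice killed 1 hr after cocaine, 3 at 2 hr and 3 at 4 hr. The series as a whole covers 5 brain structures after acute, repeated and challenge exposure to the drug, by 3′-RNA-seq, in which reads are taken from the 3′ end of polyadenylated transcripts and each original molecule carries a random tag. Each library held tissue dissected from brain slices of 1 mouse, and all 14 libraries shared 1 sequencing run. The animals were wild-type male C57BL/6OLAHSD mice, 6 to 7 weeks old on arrival, housed in groups. Cocaine was given once at 20 mg/kg by intraperitoneal injection after 3 days of habituation to saline injections and to the test chamber. Naive mice were killed straight from the home cage, so cocaine, the injection, the handling, the chamber and the hours since cannot be told apart as sources of a difference from 0 hr.

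The NAc is the ventral part of the striatum. Most of its neurons are GABAergic spiny projection neurons, which receive dopamine from the midbrain and glutamate from cortex, amygdala and hippocampus, and cocaine raises dopamine there by blocking its reuptake transporter. Dopamine D1 receptors in these neurons act through cAMP, protein kinase A and MAP kinase on transcription factors that are already present, such as CREB and the serum response factor. These switch on immediate early genes (IEGs), whose messages appear within minutes without new protein synthesis and are short lived. Their products are of several kinds, among them transcription factors (the Fos, Jun, Egr and Nr4a families), effectors at synapses and in signaling (Arc), and enzymes that switch the signal off again (the dual-specificity phosphatases).

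The 14 libraries held 2610155 to 3683464 counts each over 19363 genes, and 12448 genes passed the filter on low counts. Levels are given as CPM, counts scaled to the size of each library with TMM factors, which is a level of 1 gene across libraries and not a level per length. Summed CPM of 8 markers of spiny projection neurons was high in every library, from 8222 to 9494 in naive mice and from 7418 to 9098 at 4 hr, with no marker at 0. Markers of cortical glutamatergic neurons, which a striatal dissection should lack, summed to 61.4 to 392 CPM in naive mice, 54.3 to 342 at 1 hr, 36.7 to 122 at 2 hr and 33.1 to 338 at 4 hr, a spread within groups that touches the later results. In dissected tissue, fewer cells of a type and less RNA per cell cannot be told apart.

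**Figure D1:**
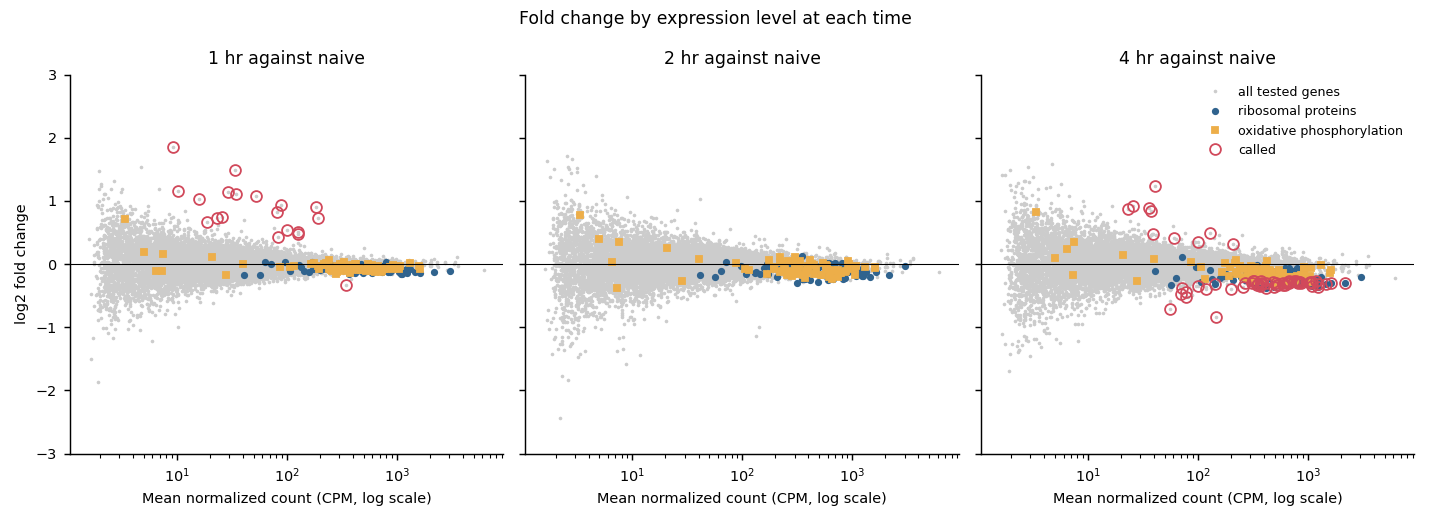
Difference from naive mice for each of the 12448 genes tested at 1, 2 and 4 hr after acute cocaine (y axis, log2 fold change) against mean level (x axis, CPM on a log scale). Circles mark called genes (adjusted p under 0.05 and a fold change over 1.2), filled blue points ribosomal protein genes and yellow squares genes of oxidative phosphorylation, with 18 above and 1 below 0 at 1 hr, none at 2 hr, and 10 above and 51 below 0 at 4 hr.

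The transcriptome was compared with that of naive mice at each time by edgeR's quasi-likelihood test with Benjamini-Hochberg adjustment over all genes tested, and a gene was called when the adjusted p was under 0.05 and the fold change over 1.2. At 1 hr, 18 genes were higher (0.145% of those tested) and 1 was lower (0.00803%). At 2 hr no gene was called by edgeR, with 941 genes at an unadjusted p under 0.05 and a smallest adjusted p of 0.102, whereas DESeq2 called 4 genes (log2 0.26 for Hap1, −0.29 for Lmo4, −0.29 for Rpl39 and −0.31 for Rpl7). At 4 hr, 10 genes were higher (0.0803%) and 51 lower (0.41%; 0.49% in either direction), and none of these was among the genes called at 1 hr. The 4 hr count was the less stable. It ran from 8 (without replicate 2 at 4 hr) to 119 (without replicate 3 at 4 hr) when 1 library was left out, with lower genes outnumbering higher ones in each of these 14 fits, while with all NAc libraries of the series in 1 fit only 2 genes were called and both were higher. With a fold change over 1.5 required, 5 were higher and 2 lower.

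Among the 18 genes that rose at 1 hr, 15 had a promoter window in RefSeq (GRCm38.p6), taken as the 250 bases before each annotated transcript start. Each window was searched on both strands for sites of the factors named above. A gene counted when any of its windows held the site. The 15 had 1.67 windows per gene and all genes tested that had a window 1.3, so the 15 were searched over more sequence per gene. The cAMP response element (CRE, TGACGTCA), bound by CREB, was in 2 of these 15 (13.3%) and in 3.15% of the 9793 genes tested that had a window. The CArG box, bound by the serum response factor, was in 1 of 15 (6.67%) and in 1.36% of all. The AP-1 site TGANTCA, bound by Fos and Jun proteins, was in none of the 15 and in 5.23% of all, and the site of the Egr proteins, GCGTGGGCG, was in 1 (6.67%, in Frmd6) and in 1.22%. The site of Nr4a proteins, AAAGGTCA, was in none of the 15 and in 1.0% of all. A perfect glucocorticoid response element (GRE, AGAACANNNTGTTC) was in 1 of the 15, Sgk1, which was also the only one among the 9793 genes (0.0102%). The windows below are shown because they hold a site, in capitals, close to the start of a gene whose response follows. They are the CRE of Arl4d (chr11:101665504-101665533, plus strand, 26 bases before the start), the CRE of Dusp1 (chr17:26508597-26508626, minus strand, 143 bases before), a CArG box before each of 2 starts of Egr2 (chr10:67537484-67537513 and chr10:67537787-67537816, plus strand, each 72 bases before) and the GRE of Sgk1 (chr10:21993693-21993722, plus strand, 189 bases before). A match in these letters is a description of the sequence, not evidence that the site was used.
Arl4d CRE: gccgcgtcgtgTGACGTCAcgagagggttt
Dusp1 CRE: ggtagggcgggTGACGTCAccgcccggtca
Egr2 CArG box, first start: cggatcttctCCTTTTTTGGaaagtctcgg
Egr2 CArG box, second start: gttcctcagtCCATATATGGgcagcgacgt
Sgk1 GRE: atgcggaaAGAACAGAATGTTCtcggagat

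Transcription factors of the IEG class formed the largest group at 1 hr. Of 26 tested members of a list of such factors, 9 were higher, 25 had a log2 fold change above 0, and the median was 0.33, where the median of all genes tested was 0.00. The largest change was that of Egr2, a zinc finger factor (chromosome 10, 67535475 to 67542188, plus strand, GENCODE M21). Egr2 was at 5.31, 5.77, 7.06 and 3.87 CPM in the 4 naive mice and at 20.6, 16.6, 17.8 and 25.3 CPM in the 4 mice at 1 hr. It was at 4.21, 6.57 and 4.73 CPM at 2 hr and 3.04, 4.85 and 3.82 CPM at 4 hr. Every mouse at 1 hr was above every other mouse, and those at 2 and 4 hr lay within or below the naive range. The log2 fold change at 1 hr was 1.86 ± 0.22 (SE; adjusted p = 5.1e-06), followed by a difference from naive mice of −0.06 at 2 hr (adjusted p = 0.977) and −0.49 at 4 hr (adjusted p = 0.619).

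The nuclear receptor Nr4a3, which acts without a known ligand, followed (chromosome 4, 48045153 to 48086447). Its level was 23.7, 15.8, 25.0 and 22.0 CPM in naive mice and 52.3, 60.5, 58.2 and 71.4 CPM at 1 hr, then 29.5, 34.2 and 30.4 CPM at 2 hr and 17.1, 16.4 and 19.1 CPM at 4 hr. All mice at 1 and at 2 hr were above all naive mice, but the fit called only the earlier difference (1.49 ± 0.13, adjusted p = 5.87e-09; at 2 hr 0.55, adjusted p = 0.3). Its relative Nr4a1 (Nur77) was more abundant and rose less, from 69.0, 71.9, 91.5 and 62.7 CPM in naive mice to 110.3, 131, 122 and 163 CPM at 1 hr (0.83 ± 0.12, adjusted p = 0.000233). At the later times Nr4a1 was at 37.2, 52.6 and 67.9 CPM (2 hr) and 46.1, 47.5 and 60.9 CPM (4 hr). The 4 hr mice were all below the lowest naive mouse, a difference that was not called (adjusted p = 0.118) and is taken up below with other early genes.

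Among the Fos and Jun genes, whose proteins pair to form AP-1, 4 were higher at 1 hr. Fos itself (chromosome 12, 85473890 to 85477273, plus strand) was low and variable, at 4.60, 14.6, 6.77 and 6.84 CPM in naive mice and 18.4, 13.2, 21.1 and 21.4 CPM at 1 hr. The naive mouse with 14.6 CPM lay above the 1 hr mouse with 13.2, so the groups overlapped (1.16 ± 0.24, adjusted p = 0.0234), and the call was lost on leaving out 1 library in 6 of 14 cases (naive replicates 1, 3 and 4, and replicates 1, 3 and 4 at 1 hr). Fosb, the source of the stable ΔFosB variant that these counts do not separate, went from 21.2, 25.8, 19.1 and 15.2 CPM to 47.8, 43.3, 36.3 and 51.5 CPM (1.14 ± 0.17, adjusted p = 0.000233). Fosl2 went from 26.9, 25.8, 20.6 and 25.0 CPM to 45.2, 59.3, 48.3 and 59.0 CPM (1.11 ± 0.15, adjusted p = 2.74e-05). Both separated the 1 hr mice from the naive mice completely. Junb was the most abundant of the set, at 143, 183, 169 and 136 CPM in naive mice and 241, 298, 264 and 372 CPM at 1 hr (0.90 ± 0.10, adjusted p = 1.93e-06). At 2 hr the Fosb level spread widely, at 16.9, 35.9 and 27.7 CPM, but the difference from 1 hr was not called for it (log2 −0.70, adjusted p = 0.218) and neither was that from naive mice (0.44, adjusted p = 0.603).

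Egr4 and Egr1 rose less than Egr2 in fold and from a higher level, and Egr3 was not called at 1 hr (log2 0.33, adjusted p = 0.22). Egr4 was at 34.7, 47.4, 42.1 and 37.2 CPM in naive mice and 73.0, 86.0, 72.6 and 112 CPM at 1 hr (1.08 ± 0.13, adjusted p = 5.1e-06). Egr1, also known as Zif268, was at 161, 165, 186 and 146 CPM in naive mice and 243, 275, 264 and 315 CPM at 1 hr (0.74 ± 0.09, adjusted p = 5.1e-06). In both genes no mouse at 1 hr reached down to the naive range. The 13 genes called at 1 hr in every one of 14 fits that each left out 1 library included all the factors named so far except Fos. When all NAc libraries of the series shared 1 estimate of the spread, the calls of Arc, Arl4d, Ddit4, Sgk1, Tiparp and Hspa5, described next, were lost. DESeq2 did not call Arc or Tiparp.

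**Figure D2:**
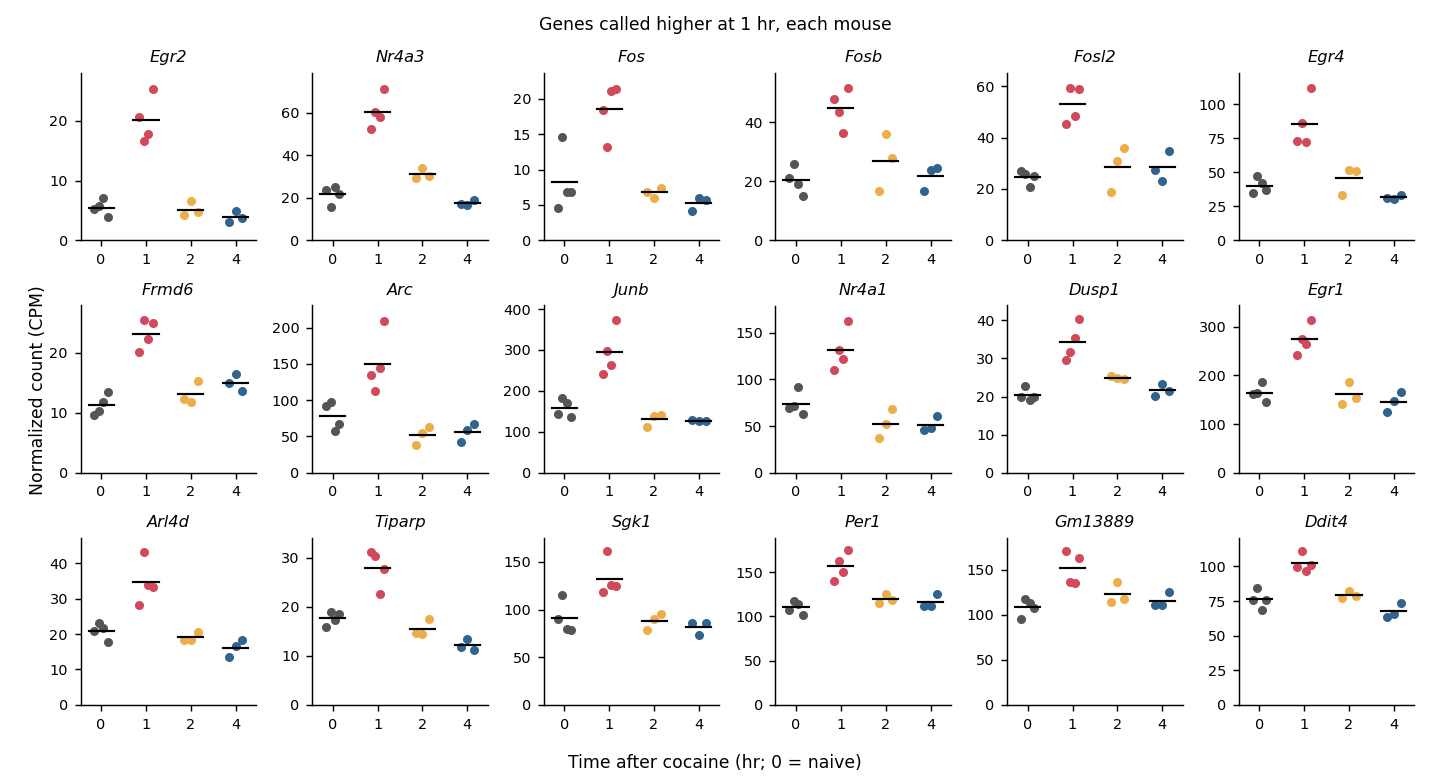
CPM of genes higher at 1 hr (y axis, CPM) in each of the 14 mice by time after acute cocaine (x axis, hours), with 1 point per mouse and a bar at the group mean. The points at 1 hr stand above the naive points in each panel except for an overlap in Fos, and at 2 and 4 hr most points are near the naive level, with Nr4a3 at 2 hr still above it.

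Effectors and signal modulators were among the rest of the early group. Of 23 tested genes on a list of IEG effectors and secreted factors, 4 were higher at 1 hr (Arc, Arl4d, Gm13889 and Tiparp), 18 were above 0, and the median was 0.26. Arc encodes a protein of excitatory synapses that takes part in removing AMPA receptors from the surface (chromosome 15, 74669083 to 74672570, minus strand). It was at 91.7, 98.0, 57.4 and 67.2 CPM in naive mice, 135, 112, 145 and 209 CPM at 1 hr, 37.9, 54.2 and 63.5 CPM at 2 hr and 42.3, 58.2 and 66.9 CPM at 4 hr. All mice were higher at 1 hr than any naive mouse (0.94 ± 0.15, adjusted p = 0.000883), and every mouse at 2 and 4 hr lay below the mean of the naive mice. Arl4d, a small GTPase of the Arf family with the CRE shown above, was at 20.9, 23.1, 21.8 and 17.8 CPM in naive mice and 28.3, 43.0, 33.9 and 33.1 CPM at 1 hr (0.72 ± 0.14, adjusted p = 0.00894). Tiparp, an ADP-ribosyltransferase, was at 15.9, 18.8, 17.4 and 18.4 CPM and then 31.1, 30.4, 22.5 and 27.7 CPM (0.66 ± 0.14, adjusted p = 0.0399). The groups did not overlap in either gene, but the call for Tiparp was lost on leaving out any of 7 libraries (each naive mouse and replicates 1, 2 and 4 at 1 hr) and that for Arl4d without naive replicate 4 or replicate 2 at 1 hr.

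Frmd6, a membrane-linked protein of the Hippo pathway, was on none of the lists and rose from 9.55, 10.3, 11.8 and 13.4 CPM in naive mice to 20.1, 25.5, 22.2 and 25.0 CPM at 1 hr (1.03 ± 0.16, adjusted p = 0.000531). Its later levels were 12.3, 11.8 and 15.2 CPM at 2 hr and 14.9, 16.4 and 13.6 CPM at 4 hr. All 3 mice at 4 hr were above all naive mice, a difference that was not called (0.41, adjusted p = 0.429). Among 21 tested MAP kinase phosphatases and feedback inhibitors only Dusp1 was called. Dusp1, which inactivates MAP kinases in the nucleus, went from 19.8, 22.8, 19.1 and 19.9 CPM to 29.7, 31.6, 35.4 and 40.4 CPM at 1 hr (0.75 ± 0.13, adjusted p = 0.00175), and it was at 25.3, 24.9 and 24.7 CPM at 2 hr and 20.2, 23.2 and 21.6 CPM at 4 hr.

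Genes known to respond to glucocorticoids were represented by 4 of 23 tested at 1 hr, while 11 of the 23 were below 0 and the list's median was 0.14. These were Sgk1, Per1, Ddit4 and Dusp1, of which Dusp1 also belongs to the phosphatases. Sgk1, a kinase that acts on ion channels, was at 90.2, 115, 79.7 and 78.5 CPM in naive mice and 118, 161, 126 and 124 CPM at 1 hr (0.54 ± 0.10, adjusted p = 0.00674). Per1, a repressor of the circadian clock, was at 108, 118, 114 and 102 CPM and 139, 163, 149.5 and 174 CPM (0.51 ± 0.08, adjusted p = 0.000238). Ddit4, an inhibitor of the mTORC1 growth pathway, was at 75.7, 84.7, 68.3 and 76.1 CPM and 99.8, 111, 96.8 and 101 CPM (0.42 ± 0.08, adjusted p = 0.00638). No 1 hr mouse overlapped the naive mice in any of the 3, and the calls of Sgk1 (naive replicates 3 and 4, and replicate 2 at 1 hr) and Ddit4 (naive replicate 3) were each lost without those libraries. Per1 was the only member called among 21 circadian clock genes. Since naive mice were taken without treatment, a hormonal response to the injection and a response to the drug cannot be told apart here.

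The single gene that was lower at 1 hr was Hspa5 (BiP), the main chaperone of the endoplasmic reticulum (chromosome 2, 34771970 to 34777547, plus strand). It was at 371, 404, 395 and 359 CPM in naive mice, 309.6, 334, 276 and 303 CPM at 1 hr, 367, 359 and 346 CPM at 2 hr and 341, 374 and 335 CPM at 4 hr. Each mouse at 1 hr was below each naive mouse (−0.32 ± 0.06, adjusted p = 0.00638), and the call was lost without naive replicate 2, naive replicate 3 or replicate 3 at 1 hr. The other 19 tested genes of the endoplasmic reticulum chaperone and unfolded protein list were not called, with a median for the list of −0.05. None of 19 cytosolic chaperones, 19 genes of projection neuron and dopamine signaling, 19 neuropeptide and interneuron genes and 61 potassium channel genes was called at 1 hr. Adora2a, the adenosine receptor of indirect-pathway neurons, was above 0 at 1 hr without passing the test (0.57 ± 0.17, adjusted p = 0.452).

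By 2 hr the early genes were lower again. Set against the 1 hr mice, 14 genes were lower at 2 hr (0.112% of those tested) and none higher, and all 14 belonged to the 18 early genes. At 4 hr, 18 genes were lower than at 1 hr (0.145%), 16 of them early genes, and 1 was higher, the endothelial tight junction gene Cldn5 (log2 0.78, adjusted p = 0.023), which is named here because it was the only one. Egr2 fell by 1.92 on the log2 scale from 1 to 2 hr (adjusted p = 2.99e-05) and Junb by 1.17 (adjusted p = 1.11e-07). Arc fell by 1.52 (adjusted p = 5.2e-06) and Nr4a1 by 1.31 (adjusted p = 1.34e-06). The selection of these genes used the same 1 hr mice, so their fall from 1 hr is a description of the time course rather than a separate test.

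Some of the early genes ended below their starting level, but no gene passed the test for an undershoot, that is, higher at 1 hr and then called lower than in naive mice at 2 or 4 hr. Of the 18, 9 had a log2 fold change below 0 at 2 hr and 12 at 4 hr. In 4 of them (Egr4, Junb, Nr4a1 and Tiparp) every mouse at 4 hr was below every naive mouse, a separation that 5.29% of all genes tested showed in that direction and 4.19% in the other, and in none was this so at 2 hr. Nr4a1 at 4 hr differed from naive mice by −0.52 ± 0.15 (adjusted p = 0.118) and Tiparp by −0.53 ± 0.17 (adjusted p = 0.198), with Tiparp at 11.9, 13.5 and 11.2 CPM. Arc was lowest at 2 hr (−0.58 ± 0.19, adjusted p = 0.384). Junb at 4 hr was at 128, 126 and 126 CPM against 143, 183, 169 and 136 CPM in naive mice, and Egr4 at 31.5, 30.2 and 33.6 CPM. These are differences of the same direction in several early genes, none of which reached the threshold.

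The outcome for the undershoot changed with the processing. In the acute libraries alone, 55 genes changed over time (0.442%). When genes were instead first selected for any change over time in a fit of all NAc libraries of the series, acute, repeated and challenge, which kept 24, and the acute libraries were then tested over those alone, Arc, Junb, Nr4a1 and Tiparp were called lower, Nr4a1 at both times (adjusted p = 0.0245 at 2 hr and 0.00962 at 4 hr), Arc at both (0.026 and 0.0458), Junb at 4 hr (0.0366) and Tiparp at 4 hr (0.0226). The selection used the same samples, so these p-values are not independent of it. Without replicate 3 at 4 hr, Nr4a1 alone was called over all genes (log2 −0.66, adjusted p = 0.0319). Without the filter on low counts 4 genes were called, Nr4a1 (adjusted p = 0.000108 at 4 hr), Arc (0.000309 at 4 hr), Junb (0.00959 at 4 hr) and Slc17a7 (0.00187 at 4 hr), of which Slc17a7 is a marker of cortical glutamatergic neurons, whose sums varied within groups as given above. In 2 steps the fit and the fold changes were those of the main test, and p was adjusted over the 24 genes alone. Without the filter the log2 fold change of Nr4a1 at 4 hr was −0.52, as in the main test. Why these settings differ was otherwise not tested.

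The 10 genes that were higher at 4 hr belonged to no single list. Raly, an RNA-binding protein of the hnRNP family (chromosome 2, 154791096 to 154867261, plus strand), had the largest change. It was at 20.2, 25.5, 31.2 and 19.9 CPM in naive mice, 29.7, 49.4, 50.3 and 29.2 CPM at 1 hr, 62.8, 56.4 and 30.4 CPM at 2 hr and 67.7, 69.8 and 34.1 CPM at 4 hr (1.23 ± 0.22, adjusted p = 0.00358). Replicate 3 at 4 hr stood close to the naive mice and the other 4 hr mice far above them. Retreg3, a receptor for the turnover of endoplasmic reticulum, showed the same split, at 16.6, 17.3, 19.7 and 16.7 CPM in naive mice and 33.7, 42.3 and 24.3 CPM at 4 hr (0.92 ± 0.18, adjusted p = 0.00781). So did Prr7, a synaptic proline-rich membrane protein, at 26.9, 32.5, 24.7 and 26.8 and 56.9, 68.5 and 28.9 CPM (0.89 ± 0.19, adjusted p = 0.0156), Cntfr, the receptor subunit for ciliary neurotrophic factor, at 25.1, 26.7, 30.3 and 28.2 and 54.4, 61.2 and 33.8 CPM (0.85 ± 0.17, adjusted p = 0.00891), and Dpp6, an auxiliary subunit of Kv4 potassium channels, at 106, 109.9, 113 and 108 and 201, 151 and 110.3 CPM (0.50 ± 0.12, adjusted p = 0.045). Marf1, an RNA-binding regulator, followed the same pattern (0.87 ± 0.21, adjusted p = 0.045). DESeq2 did not call Dpp6, which also lost its call in 10 of the 14 fits that left out 1 library.

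Replicate 3 at 4 hr was also the 4 hr library with the highest signal of cortical neurons. In plain CPM without TMM scaling, their markers summed to 337 there and to 33.7 and 59.6 in replicates 1 and 2. Their part in the 4 hr result was not tested beyond a fit with that sum as a covariate, in which 10 genes were higher and Egfl7 lost its call (adjusted p = 0.0504). None of the 10 kept its call in all 14 fits that left out 1 library, and without replicate 2 at 4 hr none of the genes tested was called higher. In 4 of the 10 the 3 mice at 4 hr lay close together. Egfl7, a secreted factor of blood vessels, was at 33.6, 36.1, 32.9 and 32.4 CPM in naive mice and 45.9, 45.8 and 49.4 CPM at 4 hr (0.48 ± 0.12, adjusted p = 0.0467), and Ly6a, also known as Sca-1 and found on brain endothelium, was at 48.8, 46.7, 55.0 and 59.8 and 64.9, 69.8 and 75.3 CPM (0.41 ± 0.10, adjusted p = 0.0497). The call of Ly6a was lost with RLE scaling (adjusted p = 0.0501) and in 12 of the 14 left-out fits, and that of Egfl7 in 10. Col6a1, a collagen, and Akap8l, a nuclear anchoring protein, differed by 0.31 (adjusted p = 0.0221) and 0.35 (adjusted p = 0.0341). Markers of endothelial and mural cells as a whole moved in the same direction, with 10 of 11 above 0 at 4 hr, a median of 0.29 and 1 called (Ly6a), and their sum ran from 422 to 484 CPM in naive mice and from 537 to 576 CPM at 4 hr. Markers of oligodendrocyte precursors summed to 245 to 264 CPM in naive mice and 254 to 313 CPM at 4 hr, with all 5 above 0, a median of 0.23 and none called. In plain CPM their sum at 4 hr was 319 and 298 in replicates 1 and 2 and 253 in replicate 3. The part of either cell type in the result was not tested.

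**Figure D3:**
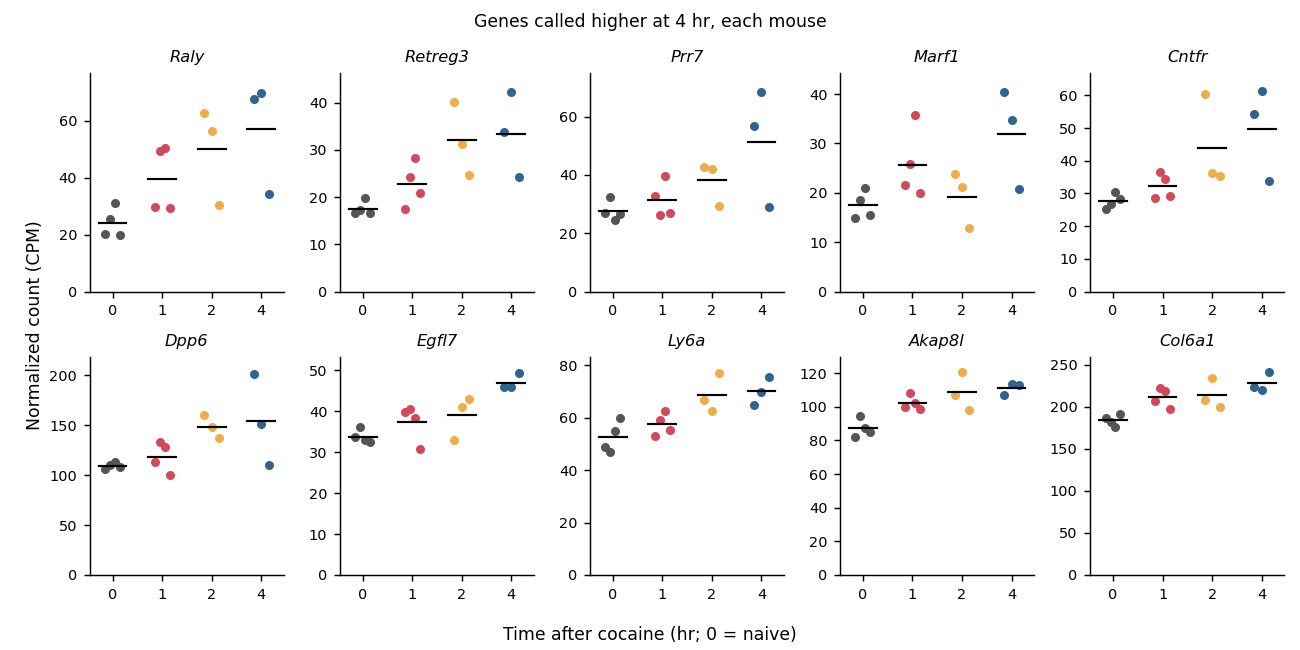
CPM of the 10 genes called higher at 4 hr (y axis, CPM) in each of the 14 mice by time after acute cocaine (x axis, hours), with 1 point per mouse and a bar at the group mean. For Raly, Retreg3, Prr7, Marf1, Cntfr and Dpp6 1 of the 3 points at 4 hr lies near the naive level, whereas for Egfl7, Ly6a, Akap8l and Col6a1 all 3 lie above every naive point.

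Genes that were lower at 4 hr were mostly those of the ribosome and of mitochondrial respiration. Of 79 tested genes for cytosolic ribosomal proteins, 27 were lower and none higher, 78 had a log2 fold change below 0, and the median was −0.22, where that of all genes tested was 0.00. The median of the list was −0.09 at 1 hr and −0.12 at 2 hr, with no member called at either time. Of 80 tested nuclear genes for subunits of oxidative phosphorylation, 6 were lower at 4 hr, 69 were below 0 and the median was −0.14. The background was 51 lower genes in 12448 (0.41%), of which these lists made up 33, and the remaining 18 included Rps3a1 (a ribosomal protein), Rpl22l1 (a ribosomal protein paralog) and Usmg5 (a subunit of ATP synthase), which the lists as drawn up did not hold. The changes were small, and no call of either list reached a fold change of 1.5.

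Rpl39, a small protein of the large ribosomal subunit (chromosome X, 37082520 to 37085402, minus strand), showed the pattern most plainly, at 585, 554, 554 and 527 CPM in naive mice, 503, 498, 469 and 542 CPM at 1 hr, 473, 448 and 441 CPM at 2 hr and 435, 435 and 427 CPM at 4 hr. All mice at 4 hr were below all at 2 hr, and those below all naive mice (−0.36 ± 0.06, adjusted p = 0.00187; at 2 hr −0.29, adjusted p = 0.137). Rps15a, of the small subunit (chromosome 7, 118104372 to 118116188, minus strand), was at 448, 483, 468 and 455 CPM in naive mice and 347, 361 and 364 CPM at 4 hr (−0.38 ± 0.06, adjusted p = 0.00212). Rpl37 differed by −0.36 ± 0.06 (adjusted p = 0.00187), Rps14 by −0.32 ± 0.05 (adjusted p = 0.00187) and Rpl31 by −0.32 ± 0.05 (adjusted p = 0.00187). These 5 kept their calls in all 14 fits that left out 1 library. Ribosomal protein genes have many near-identical processed copies in the genome, and how reads were assigned among them is not given in the sources used here, so single members are uncertain.

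The respiratory genes that were lower belonged to complexes I, IV and V. Ndufa2, of complex I, was at 723, 696, 665 and 654 CPM in naive mice and 535, 536 and 560.3 CPM at 4 hr (−0.33 ± 0.05, adjusted p = 0.00189), and it was called in all 14 left-out fits. Cox7c, of complex IV, was at 593, 588, 577 and 559 and 446, 444 and 494 CPM (−0.33 ± 0.06, adjusted p = 0.00358). Ndufa1, Ndufb5, Cox6c and the ATP synthase gene Atp5j2 differed by −0.27 to −0.30. Of the 14 left-out fits, Cox7c lost its call in 1, Ndufa1, Cox6c and Atp5j2 in 4 each and Ndufb5 in 10. In Ndufa2 and Cox7c the lowest naive mouse was above the highest 4 hr mouse.

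As a share of all counts, ribosomal protein genes made up 5.18, 5.49, 5.47 and 5.20% in naive mice and 4.69, 4.50 and 4.64% at 4 hr. The shares were 5.23, 5.11, 4.70 and 5.07% at 1 hr and 5.10, 4.69 and 5.07% at 2 hr. The 4 hr mice lay below every naive mouse, and the highest of them was close to the lowest mice at 1 and 2 hr. Subunits of oxidative phosphorylation made up 3.78 to 3.85% in naive mice and 3.37 to 3.65% at 4 hr. Genes encoded by mitochondrial DNA were not among the genes of the table.

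**Figure D4:**
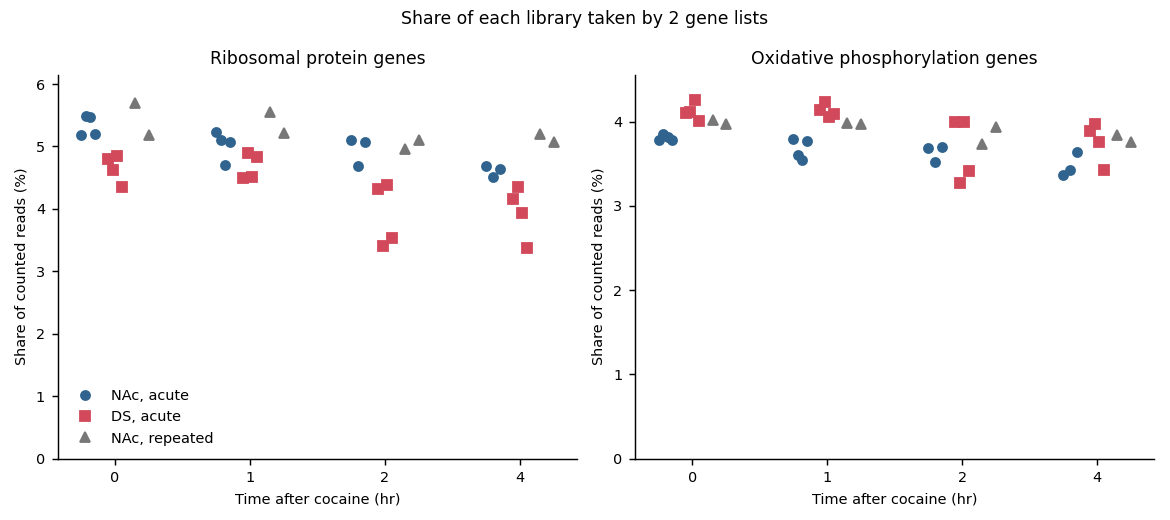
Share of all counts in each library (y axis, percent) that fell on genes for cytosolic ribosomal proteins and for oxidative phosphorylation, by group (x axis), with 1 point per mouse, for acute NAc, acute DS and repeated NAc. In the acute NAc the ribosomal share was 5.18 to 5.49% in naive mice and 4.50 to 4.69% at 4 hr.

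Messages for ribosomal proteins are known for an oligopyrimidine tract that begins at the first base and through which mTORC1 controls their translation. Counting a start as such when a C was followed by pyrimidines for a run of at least 5 bases, 14 of 58 ribosomal protein genes with a RefSeq start had one (24.1%), as had 5 of 19 of those lower at 4 hr (26.3%) and 2.98% of all genes tested that had a start. The 5 that were lower are shown with 10 bases before and 15 from the start, the pyrimidine run in capitals, since they were members of both groups. They lie on GRCm38.p6 at chr16:33056472-33056496 (Rpl35a, plus strand), chr11:114668570-114668594 (Rpl38, plus strand), chr7:118116133-118116157 (Rps15a, minus strand), chr2:180257369-180257393 (Rps21, plus strand) and chr3:90213634-90213658 (Rps27, minus strand). The share among lower members was close to that among all members. The count takes each annotated start as the first base of the message, which was not checked, so it can miss tracts. A gene counted when any of its starts had a run, with 1.19 starts per gene among all ribosomal members, 1.37 among the lower ones and 1.3 among all genes.
Rpl35a: gcttgccttcCTCTTTCCgccatct
Rpl38: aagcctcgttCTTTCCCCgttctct
Rps15a: tttctgccatCTTCCCTCgccggtg
Rps21: aggacccgccCTCCTgcccaatagt
Rps27: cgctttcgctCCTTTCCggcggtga

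Transcript length moved with the direction of change at 4 hr. Taking for each gene the median length of its annotated transcripts, ribosomal protein genes had a median of 744 bases, against 2801 for all 12366 genes with a length in GENCODE M21. Among the shortest 10% of genes (up to 1150 bases) that were on neither list, 1114 in number, the median log2 fold change was −0.07 and 69.3% were below 0. Among the 11093 longer genes outside the lists the median was 0.01 and 46.1% were below 0. Of the short genes outside both lists, 179 had a mean count of at least 500, and 82.1% of these were below 0 at 4 hr. The difference was also there earlier, with 64.2% of the short and 48.5% of the longer genes below 0 at 1 hr, and 58.2% and 47.9% at 2 hr. The 17 lower genes outside both lists that had a length had a median of 786 bases. The 18 lower ones held the related genes Rps3a1, Rpl22l1 and Usmg5. The part of transcript length in the 4 hr result was not tested.

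The number of lower genes at 4 hr rested on few libraries. It was 51 with all 14 libraries, 8 without replicate 2 at 4 hr and 82 without replicate 3 at 4 hr, and that of ribosomal protein genes was 27, 5 and 32 in the same order. Calls in either direction, 61 in all, came to 32 without naive replicate 2, 31 without naive replicate 3 and 32 without replicate 1 at 4 hr. When all NAc libraries of the series shared 1 estimate of the spread, 2 genes were called at 4 hr, both higher (Raly and Retreg3), and no ribosomal or respiratory gene.

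Of the 18 lower genes outside both lists, Lrrc17 fell furthest and was called in every left-out fit. It encodes a secreted leucine-rich repeat protein (chromosome 5, 21543559 to 21575904, plus strand) and was at 149, 189, 189.8 and 164 CPM in naive mice, 185, 138, 120.2 and 143 CPM at 1 hr, 162, 106 and 189.9 CPM at 2 hr and 93.9, 96.5 and 102 CPM at 4 hr (−0.83 ± 0.13, adjusted p = 0.00187). The 4 hr mice lay close together and below all the others. Klf9, a repressor that glucocorticoids induce (chromosome 19, 23141226 to 23168134, plus strand), was at 62.3, 78.0, 73.0 and 64.2 CPM in naive mice and 55.1, 55.9, 51.2 and 65.0 CPM at 1 hr, then 44.4, 56.7 and 46.3 CPM at 2 hr and 29.3, 48.5 and 49.9 CPM at 4 hr (−0.70 ± 0.13, adjusted p = 0.00521). All mice at 2 and 4 hr were below all naive mice, and the call at 4 hr was lost without replicate 1 at that time. At 1 hr, when 4 glucocorticoid-responsive genes were called higher, Klf9 was at −0.29 without a call (adjusted p = 0.935). At 4 hr, the time of its call, 13 of the 23 tested genes of that list were below 0, with a median of −0.04 and Klf9 the only one called.

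Of a list of 16 repressors, Klf9 and Lmo4, a LIM-only adaptor of transcription complexes, were lower at 4 hr, Lmo4 by −0.31 ± 0.07 (adjusted p = 0.045). Sox11, a factor of immature neurons, was at 87.4, 86.2, 91.2 and 77.6 CPM in naive mice and 55.5, 68.2 and 66.0 CPM at 4 hr (−0.44 ± 0.09, adjusted p = 0.0207). Kif3a, a kinesin motor subunit, differed by −0.47 ± 0.10 (adjusted p = 0.0219) and Gng13, a G protein subunit, by −0.39 ± 0.09 (adjusted p = 0.0491). The call for Lmo4 was lost on leaving out 1 library in 10 of 14 cases, that for Gng13 in 9, and those for Sox11 and Kif3a in 4 each (naive replicates 2 and 3, and replicates 1 and 2 at 4 hr). Ttr, transthyretin, which the choroid plexus makes in large amounts, went from 111, 85.0, 90.02 and 80.0 CPM to 61.0, 58.8 and 71.0 CPM (−0.52 ± 0.10, adjusted p = 0.00749), a call lost without replicate 2 at 4 hr. Choroid plexus markers, Ttr included, summed to 117 to 139 CPM in naive mice, 106 to 116 at 1 hr, 95.1 to 102 at 2 hr and 93.7 to 95.6 at 4 hr, and how much of that tissue each dissection held was not tested.

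The early response was compared with that of the dorsal striatum (DS), where acute cocaine was followed over the same hours in 16 libraries of another run (4 mice per time), by testing for each gene the difference between the 2 changes from naive mice. Structure and run coincided, so they cannot be told apart, although each change was taken against naive mice of the same run. At 1 hr the change was smaller or more negative in the NAc for 20 of 12744 genes (0.157%) and larger for none. All but 1 of the 18 early NAc genes had the smaller change in the NAc, 7 of them with a called difference, and their median log2 fold change was 0.87 in the NAc and 2.13 in the DS. The list was chosen by the NAc change itself. In the DS, 104 genes were higher at 1 hr (0.816%) and 32 lower (0.251%), and the higher ones held 17 of the 18.

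Junb, in plain CPM without TMM scaling, went from 142, 181, 167 and 135 to 240.1, 295, 267 and 370.2 CPM in the NAc and from 161, 289, 186 and 174 to 823, 857, 830.3 and 1097 CPM in the DS. The 1 hr mice were above the naive mice in both structures, with no overlap, and higher in the DS. The log2 fold changes were 0.90 and 2.22, a difference of −1.32 ± 0.20 (SE; adjusted p = 0.000357). Nr4a1 had 0.83 and 2.29 (difference adjusted p = 0.0129), Egr4 1.08 and 2.46 (adjusted p = 0.00239), Fosl2 1.11 and 2.60 (adjusted p = 0.0067) and Tiparp 0.66 and 2.25 (adjusted p = 0.000357). For Egr2 the difference of −1.50 ± 0.43 was not called (adjusted p = 0.312), but it was with the shared sample number as a block (adjusted p = 0.00669). Frmd6 had nearly equal changes, 1.04 and 1.08, with a difference of −0.04 ± 0.23, and Ddit4 was the single early gene with the larger change in the NAc (0.43 and 0.29, difference not called, adjusted p = 0.956).

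The largest difference was that of Rnd3, a small GTPase that acts on the actin cytoskeleton. Its plain CPM was 18.3, 13.5, 20.1 and 12.7 in naive mice and 13.8, 10.6, 20.9 and 16.8 at 1 hr in the NAc, where the groups overlapped, and 14.9, 3.47, 11.2 and 7.63 and 41.2, 28.1, 43.9 and 51.4 in the DS, where they did not (log2 fold changes −0.06 and 2.08, difference −2.13 ± 0.34, adjusted p = 0.000438). Arl5b, another small GTPase, was similar, with 0.36 in the NAc and 2.03 in the DS (adjusted p = 0.00239). These genes belonged to the response of the DS without being called in the NAc. Pld5, a member of the phospholipase D family, was chosen for mention after its values were seen because its level was below naive at 1 hr in the NAc, from 10.2, 12.9, 18.0 and 13.9 plain CPM in naive mice to 8.15, 5.16, 9.44 and 5.09 at 1 hr, without being called there (log2 −0.99, adjusted p = 0.073), while its DS change was 0.38 (difference adjusted p = 0.00239).

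**Figure D5:**
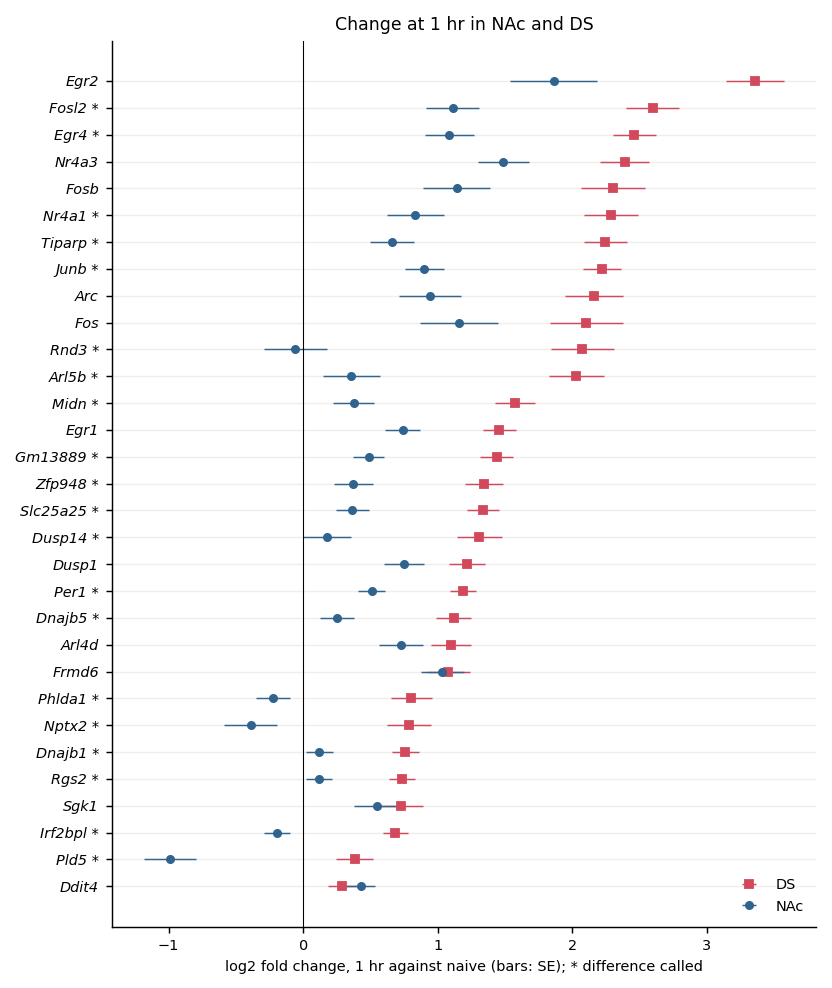
Log2 fold change at 1 hr against naive mice (x axis) of genes called higher at 1 hr in the NAc or called as different between structures (y axis), in the NAc (circles) and the DS (squares), with bars of 1 SE. Stars mark genes with a called difference, and DS points lie to the right of NAc points for all genes shown but Ddit4.

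Sample names in the labels carry the same 14 numbers in both structures, and the study's methods give fewer mice than libraries, so that structures probably shared mice. These numbers are not the replicate numbers. For example, NAc replicate 2 at 2 hr shares its sample number with DS replicate 3 at 2 hr. That an equal number marks the same mouse is not stated outright. With the number as a block (28 libraries, 2 DS mice left out) the called differences at 1 hr were 37, all with the smaller or more negative change in the NAc and holding all 20, where the same 28 libraries without the block gave 21. Among those added were Arc (−1.20, adjusted p = 9.71e-05), Egr1 (−0.73, adjusted p = 0.00297), Egr2 (−1.46, adjusted p = 0.00669), Fosb (−1.11, adjusted p = 0.00129) and Nr4a3 (−0.94, adjusted p = 0.049), so the calls of these 5 early genes depended on the block. At 2 hr the only difference called without it was that of Dnajb5, a co-chaperone (0.00785%; −1.13, adjusted p = 0.0105), and the block added Dusp14 (−0.96, adjusted p = 0.00839). At 4 hr no difference was called by edgeR without the block, with 1126 genes at an unadjusted p under 0.05, a smallest adjusted p of 0.117 and 12 calls by DESeq2. With the block 6 were called, among them Egr3 (−0.81, adjusted p = 0.000586) and the synaptic scaffold Homer1 (−0.70, adjusted p = 0.0171).

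In the DS, ribosomal protein genes had a median log2 fold change of 0.03 at 1 hr, −0.26 at 2 hr (18 called, 78 of 79 below 0) and −0.23 at 4 hr (10 called, 78 below 0). Over all genes, 1.09% were called higher and 0.942% lower in the DS at 2 hr, and 0.816% and 0.643% at 4 hr. No ribosomal or respiratory gene had a called difference between NAc and DS at any time. Their share of counts in the DS was 4.35 to 4.85% in naive mice, 3.40 to 4.38% at 2 hr and 3.37 to 4.35% at 4 hr. At 2 hr replicates 2 and 4 stood apart, with 3.40 and 3.53% and the largest totals (5524281 and 4416307 counts), while replicates 1 and 3 had 4.32 and 4.38%, close to the lowest naive mouse. At 4 hr the lowest share was also that of the deepest library (replicate 4, 4963047 counts), and the part of depth in these shares was not tested.

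Mice on the fifth of 5 daily injections of cocaine gave a second time course in the NAc, with 2 mice at each time, 0 hr being 1 day after the fourth injection. They came from another run, so experience and run cannot be told apart. No difference was called by edgeR at 1 or 2 hr (smallest adjusted p 0.352 and 0.599, with 602 and 730 of 12836 genes at an unadjusted p under 0.05), though some were called without the filter on low counts. The median of the 18 early genes at 1 hr was 0.86 after acute and 1.05 after repeated cocaine. Their median was 0.01 and 0.30 at 2 hr, with the smaller change after acute cocaine for 17 of the 18, and −0.24 and 0.21 at 4 hr, with the smaller change after acute cocaine for 15. After repeated cocaine 1 of the 18 was below 0 at 2 hr and 6 at 4 hr. None of the 18 had a called difference at any time, and the list was chosen on the acute course. At 4 hr 1 gene was called (0.00779%), the RNA polymerase III subunit Polr3e, which changed by −0.07 after acute and by 0.89 after repeated cocaine (adjusted p of the difference 0.0439). No gene was called at 4 hr without naive replicate 2, 3 or 4, replicate 1, 2 or 3 at 1 hr, replicate 2 at 2 hr or replicate 1 at 4 hr of the acute course, or with the replicate number as a block, and 8 were called without replicate 3 at 4 hr. Ribosomal protein genes in the repeated course had a median of −0.11 at 2 hr and −0.07 at 4 hr with none called, and no difference from the acute course was called for any of them.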

How the data were processed

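The deposited values were whole-number read counts per gene in 1 table of 19363 genes and 194 libraries, not normalized for library size. The authors made them from reads trimmed of polyA, aligned to GRCm38 with STAR, counted with HTSeq and collapsed by UMI. Versions, annotation and strand setting are not given in the sources used here, so overlapping and antisense genes cannot be told apart. Groups came from the labels.

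Genes were filtered with filterByExpr, scaled by TMM and tested in R 4.3.3 with edgeR 4.0.16 (quasi-likelihood F test, 1 model of 14 libraries, Benjamini-Hochberg adjustment). DESeq2 1.42.0 was an alternative, and the scripts were tested on simulated counts. A gene was called at an adjusted p under 0.05 and a fold change over 1.2. Differences between structures or experiences were interaction contrasts. Genes named were, per contrast, the 10 called with the largest and the 10 with the smallest change at a mean of at least 10 counts, any undershooting gene, the called members of lists or else the 2 with the smallest p, and the 5 most different at each end of an interaction. The outlier check left out 1 gene, which is not reported here. Members and lists were chosen with earlier results of these data known.

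Within groups, counts of 18 library pairs differed by more than sampling noise (chi-square per degree of freedom 1.72 to 3.70), so no pair was 1 library sequenced again. Separate preparations from 1 mouse would not be seen this way, and pairs across groups were not compared by it. The total of a library limits low genes most, such as Fos and Egr2. Within the NAc, libraries of the same replicate number did not deviate together (mean r 0.01 over 19 pairs, 3 above 0.1). Between NAc and DS, a shared sample number probably marks a mouse. The deviations of 14 such pairs from their group means correlated weakly (mean r 0.03, from −0.08 to 0.11, 10 above 0, 2 above 0.1, and all 8 above 0 at 0 and 1 hr). The mean over 42 pairs of other numbers was −0.01, which centring on group means pushes below 0.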

Additional observations from a re-analysis of the deposited data

Results flagged for a closer look

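In 142 groups of 4 mice, which were the naive and the 1 hr group of each named gene called against naive mice, 6 held a mouse far from the other 3. The criterion, Dixon's, is set so that chance passes about 1 in 20 groups. All were genes called lower at 4 hr, which was also the largest class of named genes, with 43 lower at 4 hr, 18 higher at 1 hr and 10 higher at 4 hr. Gng13 stood at 252 CPM in replicate 4 at 1 hr (others 185 to 194), Kif3a at 69.0 CPM in naive replicate 4 (81.4 to 83.8), Rpl30 at 800.2 CPM in replicate 3 at 1 hr (899 to 918), Rpl37 at 1249 CPM in naive replicate 4 (1399 to 1417), Rps20 at 921 CPM in replicate 4 at 1 hr (840 to 848) and Rps27a at 692 CPM in naive replicate 2 (652 to 656).

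In 22 cases the change from naive mice differed between structures or experiences by the interaction test. The log2 difference, NAc minus DS, at 1 hr was −2.13 for Rnd3, −1.67 for Arl5b, −1.58 for Tiparp, −1.49 for Fosl2, −1.45 for Nr4a1, −1.38 for Egr4, −1.37 for Pld5, −1.32 for Junb, −1.20 for Midn, −1.18 for Nptx2, −1.13 for Dusp14, −1.03 for Phlda1, −0.97 for Slc25a25, −0.97 for Zfp948, −0.95 for Gm13889, −0.88 for Irf2bpl, −0.87 for Dnajb5, −0.68 for Per1, −0.64 for Dnajb1 and −0.61 for Rgs2. At 2 hr it was −1.13 for Dnajb5. Acute minus repeated cocaine in the NAc at 4 hr gave −0.96 for Polr3e.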

How the results depend on the processing

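None of the named genes called against naive mice changed sign in that contrast under the alternatives run. Without the filter on low counts, calls rose to 31 at 1 hr, 44 at 2 hr, 139 at 4 hr, 57 (2 against 1 hr), 67 (4 against 1 hr) and 171 (over time), with 78 induced, 103 decreasing and 4 undershooting genes, 74, 67 and 23 NAc minus DS differences at 1, 2 and 4 hr, and 5, 23 and 66 acute minus repeated ones. A fold change over 1.5 left 7 calls at 4 hr, 21 over time, 2 decreasing genes and 0 ribosomal and 0 respiratory genes. With all NAc libraries in 1 fit there were 2 calls at 4 hr, 8 (2 against 1 hr), 23 over time, 15 induced, 0 decreasing, and 0 ribosomal and 0 respiratory genes. Adjustment in 2 steps gave 4 calls at 2 hr, 6 at 4 hr, 21 over time, 1 decreasing, 4 undershooting, and 0 ribosomal and 0 respiratory genes. DESeq2, which gave no adjusted p to 11825 of 12448 genes at 2 hr and in 4 against 1 hr, made 4 calls at 2 hr, 2 (4 against 1 hr) and 12 NAc minus DS differences at 4 hr. A block on the sample number that NAc and DS libraries share, added after seeing the data, gave 37, 2 and 6 NAc minus DS differences, and the same 28 libraries without it 21, 0 and 0. These settings change the genes tested, the spread estimate or the tool, and the cause of each move was otherwise not tested.

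With the replicate number as a block, calls were 18, 0 and 50 at 1, 2 and 4 hr, and the acute minus repeated count at 4 hr went from 1 to 0. Tiparp at 1 hr and Akap8l, Col6a1, Dpp6, Egfl7, Marf1, Cox6c, Ndufb5, Gng13, Lmo4 and Pigp at 4 hr lost their calls with it. The numbers share only a name, 6 of 14 libraries matching their own number best. Leaving out 1 NAc library at a time gave 14 to 20 calls at 1 hr, 0 to 2 at 2 hr, 8 to 119 at 4 hr, 7 to 16 (2 against 1 hr), 14 to 44 (4 against 1 hr) and 27 to 93 over time, 18 to 55 induced, 9 to 82 decreasing, 0 to 1 undershooting, 8 to 9 early factors, 5 to 32 ribosomal and 1 to 9 respiratory genes. It gave 13 to 21, 0 to 3 and 0 to 0 NAc minus DS differences and 0 to 0, 0 to 0 and 0 to 8 acute minus repeated ones. Leaving out 1 DS library, which was added after seeing the data, gave 15 to 28, 0 to 25 and 0 to 4. For calls against naive mice at 4 hr, decreasing, ribosomal and respiratory genes, the low ends came without replicate 2 at 4 hr and the high ends without replicate 3 at 4 hr. With 3 or 4 mice a group and at most 3683464 counts a library, differences in genes of few counts are the least precise.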
